A study of Mus musculus with 16 samples.

Results

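Expression of 7 genes of cholesterol efflux and of the liver X receptor (LXR) pathway was followed in mouse mammary organoids of 4 genotypes. The genes were the receptors Nr1h3 and Nr1h2, the efflux transporters Abca1 and Abcg1, the secreted lipid carriers Apoe and Pltp, and Mylip. All 7 were found by symbol among the 55487 gene identifiers of the count table, and all 7 passed the filter on low counts. The set was put together because Abcg1 was lower in mutant than in WT organoids. Levels against WT are therefore given as a description with no test, and the 7 genes were tested between mutant genotypes only.

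Organoids are small multicellular bodies that tissue cells form in culture. The 16 samples were 3 WT, 4 PIK3CA mutant, 4 HER2 mutant and 5 samples with both mutations (the double mutant). The series title gives the mutations as PIK3CA H1047R and HER2 V777L, in a catalytic subunit of phosphoinositide 3-kinase and in the receptor tyrosine kinase encoded by Erbb2 in the mouse. The culture medium was the same for every genotype and held epidermal growth factor, Rspo1 and Noggin. WT organoids were labelled as normal breast and all mutant organoids as breast tumor, so genotype and tissue source cannot be told apart in any comparison with WT. The labels used here do not state the strain, the age, the promoter or Cre behind the mutant alleles, or whether replicates came from separate animals. The p-values then measure only the spread between these samples, which may be technical.

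LXRs are nuclear receptors that sense oxysterols and desmosterol, the oxidised derivatives and the late precursors of cholesterol. They bind DNA with a retinoid X receptor (RXR) partner and, when loaded with ligand, raise genes that move cholesterol out of cells and onto lipoproteins and that lower its uptake. The sterol-sensing factor SREBP2 works in the opposite direction, raising cholesterol synthesis when sterols are scarce. Macrophages are a cell type with strong LXR-driven efflux, and mammary epithelium also expresses LXRs.

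Total counts per sample ranged from 45545182 to 64168308 reads. Erbb2 stood at 2696 to 4632 CPM (read counts scaled to library size) in HER2 mutant and 1499 to 2751 CPM in double mutant organoids, against 145 to 188 CPM in the other genotypes, so each library matched its HER2 label. Pik3ca RNA stood at 91.6 to 110.5 CPM in PIK3CA mutant and 109.5 to 122 CPM in double mutant organoids. It was 75.9 to 85.7 CPM in WT and 61.4 to 74.15 CPM in HER2 mutant organoids. These ranges separate by the PIK3CA label, but RNA counts do not show the point mutation. All 5 luminal markers (Epcam, Krt8, Krt18, Krt19, Elf5) and all 5 basal markers (Krt5, Krt14, Acta2, Trp63, Oxtr) were detected in every genotype. Correlations of log2 CPM between samples of a genotype ranged from 0.925 to 0.986. HER2 mutant 1 had the lowest mean correlation with its own genotype (0.932). It is named below wherever it bears on a value.

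Nr1h2 encodes LXR beta, which is found in most tissues, and its mean level spanned 125 to 152 CPM over the 4 genotypes. In GRCm38, the build of all positions given, it lies at chr7:44549616-44553951 (minus strand). It stood at 128, 127 and 119.7 CPM in WT organoids. PIK3CA mutant organoids had 129.7, 145, 144 and 142 CPM and HER2 mutant organoids 151, 154, 167 and 139 CPM. Double mutant organoids had 131, 154, 164, 123 and 128 CPM. All PIK3CA and HER2 single mutant samples lay above all WT samples, by a log2 fold change of 0.17 ± 0.12 (SE) and 0.29 ± 0.12, and the double mutant samples overlapped WT. Between mutant genotypes the largest log2 difference was -0.12 ± 0.10 (SE), double mutant against HER2 mutant, with an adjusted p of 0.597 (edgeR's quasi-likelihood test, Benjamini-Hochberg over 24252 genes).

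Nr1h3 encodes LXR alpha, the form enriched in liver, fat and macrophages, and it had the lowest mean CPM of the 7 genes in each genotype. It lies at chr2:91184061-91202834 (minus strand). Its levels were 9.44, 5.36 and 11.4 CPM in WT and 4.34, 5.76, 6.95 and 4.18 CPM in PIK3CA mutant organoids. HER2 mutant organoids had 3.36, 3.32, 3.18 and 9.29 CPM, and double mutant organoids 3.35, 1.97, 1.37, 4.25 and 3.09 CPM. HER2 mutant 4 was high and reached into the WT range, while the other HER2 mutant samples lay below every WT sample. The double mutant was below WT in all 5 samples, with a log2 fold change of -1.63 ± 0.40 (SE). Against the PIK3CA mutant it differed by -0.92 ± 0.38 and against the HER2 mutant by -0.77 ± 0.38, and neither passed the threshold (adjusted p = 0.328 and 0.306, edgeR). In length-scaled CPM (CPM per kilobase of exon), the Nr1h2 level was 7.90 to 17.8 times the Nr1h3 level in WT samples and 21.7 to 89.2 times in double mutant samples. Nr1h3 shares 34 exon bases with Gm13783, which had at most 7 counts in any sample.

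Abca1 moves cholesterol and phospholipid onto lipid-poor apolipoprotein A-I and is a direct LXR target. The gene lies at chr4:53030787-53159895 (minus strand). Its promoter is shown because the gene is one of the 2 efflux transporters of the set and because a loose LXR-type repeat lies in it. The sequence is the 250 bases before the RefSeq transcript start, GRCm38.p6, chr4:53159896-53160145, minus strand, written 5′ to 3′ along the gene, with the repeat in capitals.

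Abca1 promoter: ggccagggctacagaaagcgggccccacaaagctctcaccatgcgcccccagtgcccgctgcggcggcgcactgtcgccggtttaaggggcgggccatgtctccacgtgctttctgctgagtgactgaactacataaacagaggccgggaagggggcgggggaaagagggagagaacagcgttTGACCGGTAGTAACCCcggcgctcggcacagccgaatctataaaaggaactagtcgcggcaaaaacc

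The motif searched was DR4, AGGTCA repeated after any 4 bases, on both strands, in windows of 250 bases before and 50 bases after each start, with at most 3 mismatches over the 12 fixed positions. No other motif was searched. A limit of 2 mismatches gave no match in the 6 genes with an entry, and 3 was set after that was seen. The Abca1 match lies on the strand opposite to the gene, begins 67 bases before the start and has 3 mismatches, and 21.9% of 32851 mouse promoters hold a match this loose. RefSeq entries were found for 6 of the 7 genes, all but Abcg1. Only Abca1 among these 6 had a match in its window, and sequence outside the windows was not searched. Whether LXRs bind the Abca1 stretch was not tested.

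Abca1 was the most abundant of the 7 genes in CPM and was lower in every mutant sample than in every WT sample. WT organoids had 1635, 1250 and 2221 CPM. PIK3CA mutant organoids had 426, 606, 701 and 671 CPM, HER2 mutant organoids 205, 437, 528 and 245 CPM, and double mutant organoids 226, 252, 393, 407 and 425 CPM. The log2 fold changes against WT were -1.50 ± 0.32 (SE), -2.27 ± 0.33 and -2.32 ± 0.31 in that order of genotypes, which are 2.83-fold, 4.81-fold and 5.0-fold lower levels. Between mutants, the highest double mutant sample (425 CPM) lay just below the lowest PIK3CA mutant sample (426 CPM). Neither the double mutant nor the HER2 mutant differed from the PIK3CA mutant past the threshold (log2 fold change -0.82 ± 0.28, adjusted p = 0.238, and -0.77 ± 0.30, adjusted p = 0.171, edgeR). The double mutant and the HER2 mutant differed by -0.05 ± 0.29 on the log2 scale (adjusted p = 0.95). In these bulk samples, fewer cells that express a gene and less RNA per cell cannot be told apart.

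Abcg1, at chr17:31057675-31117988 (plus strand), passes cholesterol to mature HDL particles. WT organoids had 396, 279 and 606 CPM, which is the contrast that chose the gene. PIK3CA mutant organoids had 48.9, 70.7, 108 and 78.0 CPM and HER2 mutant organoids 48.1, 62.8, 65.1 and 35.8 CPM. Double mutant organoids had 21.6, 9.50, 13.6, 38.6 and 40.9 CPM. Every mutant sample was below every WT sample, at mean levels 5.60-fold lower in the PIK3CA mutant, 8.07-fold lower in the HER2 mutant and 17.2-fold lower in the double mutant. Double mutants 2 and 3 had the lowest Abcg1 of all 16 samples.

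Among mutants, all 5 double mutant samples lay below all 4 PIK3CA mutant samples for Abcg1. The log2 fold change was -1.62 ± 0.38 (SE), 3.07-fold lower, with an adjusted p of 0.0698 in edgeR's quasi-likelihood test, short of the threshold of 0.05. DESeq2 gave 0.00393, limma on the deposited normalized values 0.0487 and edgeR without the low-count filter 0.0446. Without double mutants 2 and 3 the difference was -1.18 (adjusted p = 0.118). The double mutant and the HER2 mutant overlapped, with a log2 difference of -1.09 ± 0.38 (adjusted p = 0.136), and -0.65 without double mutants 2 and 3 (adjusted p = 0.253). The HER2 and PIK3CA mutants differed by -0.53 ± 0.40 (adjusted p = 0.521).

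**Figure D1:**
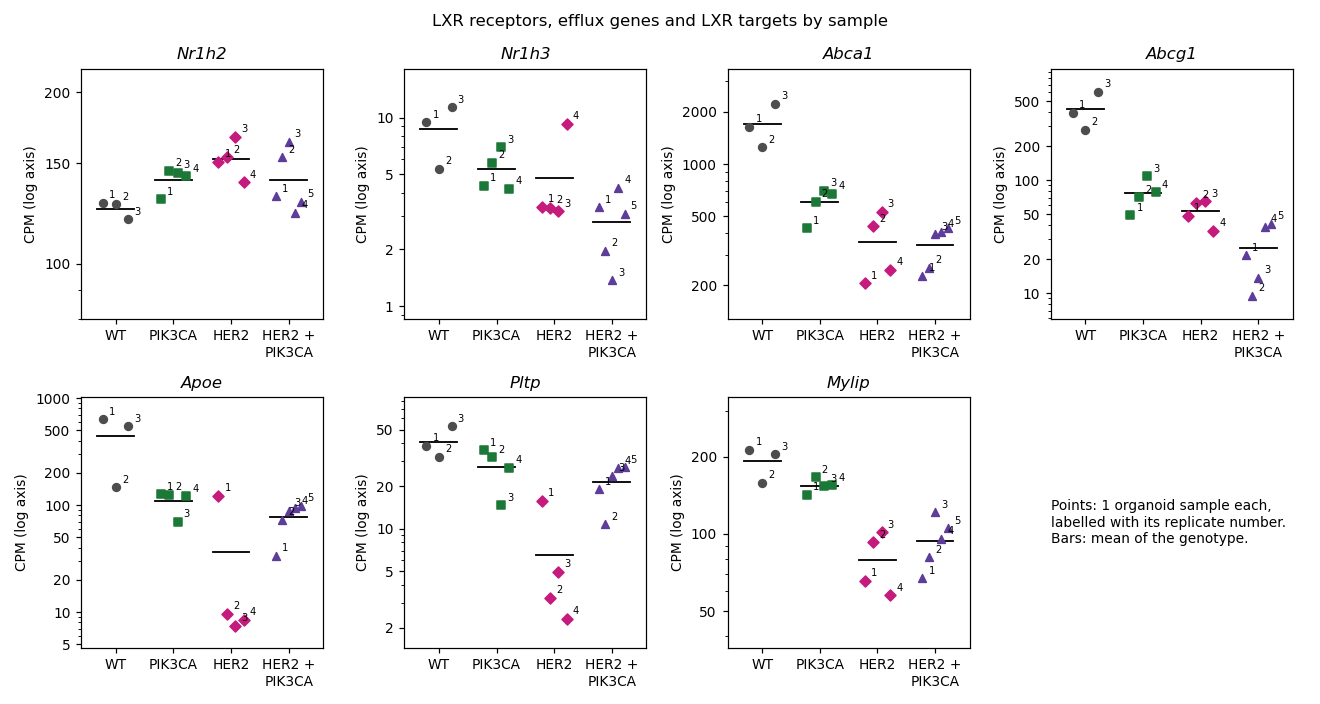
CPM (log axes) of the 7 genes by genotype, 1 point per organoid sample with its replicate number, bars at the genotype means. Abca1 and Abcg1 are lower in every mutant sample than in every WT sample, Apoe and Pltp are lowest in HER2 mutants 2 to 4, and Nr1h2 stays between 119.7 and 167 CPM.

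The 2 transporters were not lower by the same factor in each genotype. Scaled for exon length, Abca1 was 2.58 to 3.15 times as high as Abcg1 in WT samples. The ratio was 4.58 to 6.14 in PIK3CA mutant samples and 3.0 to 5.71 in HER2 mutant samples. It was 7.31 to 20.3 in double mutant samples, above every other sample. Double mutants 2 and 3 had the largest ratios, 18.6 and 20.3, and the other 3 had 7.31 to 7.43. This ratio was chosen after its values were seen and was not tested.

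Apoe and Pltp differed from the transporters in their order across mutants, being lowest in the HER2 mutant. Apoe encodes apolipoprotein E, a secreted acceptor of effluxed cholesterol, and lies at chr7:19696109-19699188 (minus strand). WT organoids had 633, 146 and 544 CPM and PIK3CA mutant organoids 126, 124, 70.2 and 121 CPM. HER2 mutant organoids had 121, 9.66, 7.43 and 8.50 CPM, and double mutant organoids 33.6, 72.5, 88.7, 93.6 and 98.7 CPM. HER2 mutant 1 lay with the PIK3CA mutant samples, and the other 3 HER2 mutant samples lay below every other sample of the series. No comparison of Apoe between mutants passed the threshold over all samples in edgeR, and limma called the HER2 against the PIK3CA mutant (-2.70, adjusted p = 0.0424). The log2 fold change of HER2 against PIK3CA mutant was -1.58 ± 0.76 (SE, adjusted p = 0.27, edgeR), and that of double against HER2 mutant 1.07 ± 0.73 (adjusted p = 0.487). Without HER2 mutant 1 they were -3.69 (adjusted p = 0.00107) and 3.18 (adjusted p = 0.00322). Against WT, Apoe was 4.0-fold, 12-fold and 5.7-fold lower in the PIK3CA, HER2 and double mutants.

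Pltp encodes phospholipid transfer protein, which remodels HDL in plasma and is an LXR target, at chr2:164839518-164857711 (minus strand). It stood at 38.6, 32.3 and 52.7 CPM in WT and 35.8, 31.8, 14.6 and 27.0 CPM in PIK3CA mutant organoids. HER2 mutant organoids had 15.8, 3.26, 4.94 and 2.31 CPM and double mutant organoids 18.9, 10.8, 23.6, 26.6 and 27.1 CPM. HER2 mutant 1 again stood highest of its genotype and just above PIK3CA mutant 3, so the 2 genotypes overlapped. Pltp fell in the HER2 mutant against the PIK3CA mutant, with a log2 fold change of -2.05 ± 0.50 (SE, adjusted p = 0.0294, edgeR). This call was lost when PIK3CA mutant 1, 2 or 4 or HER2 mutant 2 or 3 was left out, with adjusted p-values of 0.059 to 0.0823. It was also lost with only the 2 genotypes in the fit (0.109) or only the 13 mutant samples (0.0509), and without HER2 mutant 1 it was larger (-2.96, adjusted p = 0.00107). The double mutant was 1.70 ± 0.48 above the HER2 mutant (adjusted p = 0.0649), or 2.61 above it without HER2 mutant 1 (adjusted p = 0.00302). With every sample in it, that comparison passed in DESeq2 (adjusted p = 0.00793), in limma (2.04, adjusted p = 0.029) and in edgeR without the low-count filter (adjusted p = 0.0453).

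Pltp shares 495 exon bases with Ctsa on the opposite strand, and whether counting used strand is not given in the sources used here. Ctsa, which encodes a lysosomal carboxypeptidase, differed by -0.25 ± 0.16 between the HER2 and PIK3CA mutants (adjusted p = 0.427, edgeR) and by -0.18 ± 0.15 between the double and HER2 mutants (adjusted p = 0.601). Against WT, Ctsa was lower in all 3 mutants, with log2 fold changes of -0.65, -0.90 and -1.08 in the PIK3CA, HER2 and double mutants (adjusted p = 0.042, 0.00493 and 0.000628, edgeR). Those of Pltp were -0.59 ± 0.51, -2.65 ± 0.53 and -0.95 ± 0.48 (SE). The part of Ctsa reads in the Pltp levels was not tested.

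HER2 mutant 1, highest of its genotype in Apoe and Pltp, also had the highest basal marker sum of its genotype. The summed CPM of the 5 basal markers was 865 in HER2 mutant 1 and 239.6, 238 and 368 in HER2 mutants 2 to 4. Krt14 made up 507 CPM of the first. Of the 5 markers, Krt14, Acta2 and Trp63 were highest of the genotype in HER2 mutant 1, but Krt5 was highest in HER2 mutant 3 (52.0 CPM) and Oxtr in HER2 mutant 4 (250.1 CPM). Among HER2 mutants 2 to 4 the sum was highest in the sample with the least Pltp, number 4. It was 474 in PIK3CA mutant 3, the sample with the least Apoe and Pltp of that genotype, and 997 to 1293 in the other PIK3CA mutant samples. Double mutant samples had 477 to 957, with the lowest sum in double mutant 2, which also had the least Pltp of its genotype. The double mutant sample with the least Apoe, number 1, had a basal sum of 907. The part of basal cells in the Apoe and Pltp differences was not tested.

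Mylip encodes an E3 ubiquitin ligase, also called IDOL, that marks lipoprotein receptors for degradation, and it is the LXR target that links the pathway to lipoprotein uptake. The gene lies at chr13:45389742-45412022 (plus strand). Its promoter is shown for comparison with that of Abca1. The sequence is the 250 bases before the RefSeq start, GRCm38.p6, chr13:45389492-45389741, plus strand, all in lower case because the fewest mismatches to DR4 in its window were 5.

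Mylip promoter: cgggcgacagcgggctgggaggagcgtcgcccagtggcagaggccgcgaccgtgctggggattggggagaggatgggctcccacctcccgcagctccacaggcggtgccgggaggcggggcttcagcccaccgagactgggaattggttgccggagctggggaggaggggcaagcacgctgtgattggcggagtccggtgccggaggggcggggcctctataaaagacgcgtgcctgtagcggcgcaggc

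Mylip was lower in both HER2-bearing genotypes than in the PIK3CA mutant. WT organoids had 212, 158 and 204 CPM and PIK3CA mutant organoids 142, 166, 153 and 155 CPM. HER2 mutant organoids had 65.5, 92.6, 102 and 57.7 CPM and double mutant organoids 67.2, 81.1, 121, 95.7 and 105 CPM. PIK3CA mutant and WT samples overlapped, and every HER2 mutant and double mutant sample lay below both. Mylip fell in the HER2 mutant against the PIK3CA mutant, with a log2 fold change of -0.96 ± 0.20 (SE), 1.94-fold lower (adjusted p = 0.0134, edgeR). That call held under all 15 alternatives, with adjusted p-values of 0.000486 to 0.041. Between the double and PIK3CA mutants the difference was -0.71 ± 0.18 (adjusted p = 0.0968, DESeq2 0.026), and between the double and HER2 mutants 0.25 ± 0.19 (adjusted p = 0.546). Epithelial markers also differed between the HER2 and PIK3CA mutants. The 5 luminal markers summed to 1643 to 2377 CPM in HER2 and 2628 to 3126 CPM in PIK3CA mutant samples, with no overlap, and to 2301 to 4174 CPM in double mutant samples. In edgeR 1 of the 5 luminal markers (Krt19) and 2 of the 5 basal markers (Krt5 and Acta2) were lower in the HER2 mutant. The list medians were -0.73 and -1.55 on the log2 scale, and 4.41% of all genes passed. The Krt5 call held under all 15 alternatives, that of Krt19 under 10 and that of Acta2 under 5. Krt19 and Krt8 (luminal) and Krt5 (basal) were higher in the double than in the HER2 mutant in edgeR, where 2.5% of all genes passed. These calls held under 10, 5 and 15 of 17 alternatives. None of either list passed between the double and PIK3CA mutants in edgeR or DESeq2, with 0 luminal and 1 basal marker at an unadjusted p under 0.05. The part of these markers' cells in the Mylip difference, and in the other differences of the HER2 mutant from the PIK3CA and double mutants, was not tested.

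Counted together, 2 of the 7 genes, Mylip and Pltp, passed the threshold between the HER2 and PIK3CA mutants, both lower, where 4.41% of all tested genes passed and 2.2% were lower. None of the 7 passed between the double and PIK3CA mutants in edgeR, where 0.672% of all genes passed. There 4 of the 7 had an unadjusted p under 0.05, against 12.4% of all genes, and DESeq2 called 2, Abcg1 and Mylip. None passed between the double and HER2 mutants in edgeR, where 2.5% of all genes passed. There 2 had an unadjusted p under 0.05, against 17.8% of all genes, and DESeq2 called 1, Pltp. All samples of the double mutant lay below all samples of the PIK3CA mutant for 3 of the 7 (Abca1, Abcg1 and Mylip), against 4.5% of all genes. The same held between the HER2 and PIK3CA mutants for 1, Mylip, against 6.87%. Between the double and HER2 mutants all 7 genes overlapped, where 4.59% of all genes did not.

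The median log2 fold change of the 7 genes was -0.77 between the HER2 and PIK3CA mutants, where the median of all tested genes was 0.07. It was -0.71 between the double and PIK3CA mutants, where the median of all genes was 0.04, and -0.05 between the double and HER2 mutants, where it was -0.02. These 3 comparisons share samples in pairs. Against WT, all samples were lower for 3 of the 7 genes in the PIK3CA mutant (15.7% of all genes), 5 in the HER2 mutant (12.4%) and 6 in the double mutant (13.4%). All samples were higher for 1 gene, Nr1h2, in the PIK3CA mutant (13.8%) and in the HER2 mutant (9.81%). These counts against WT come from the contrast that chose the set and are a description, and the 3 comparisons use the same WT samples.

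**Figure D2:**
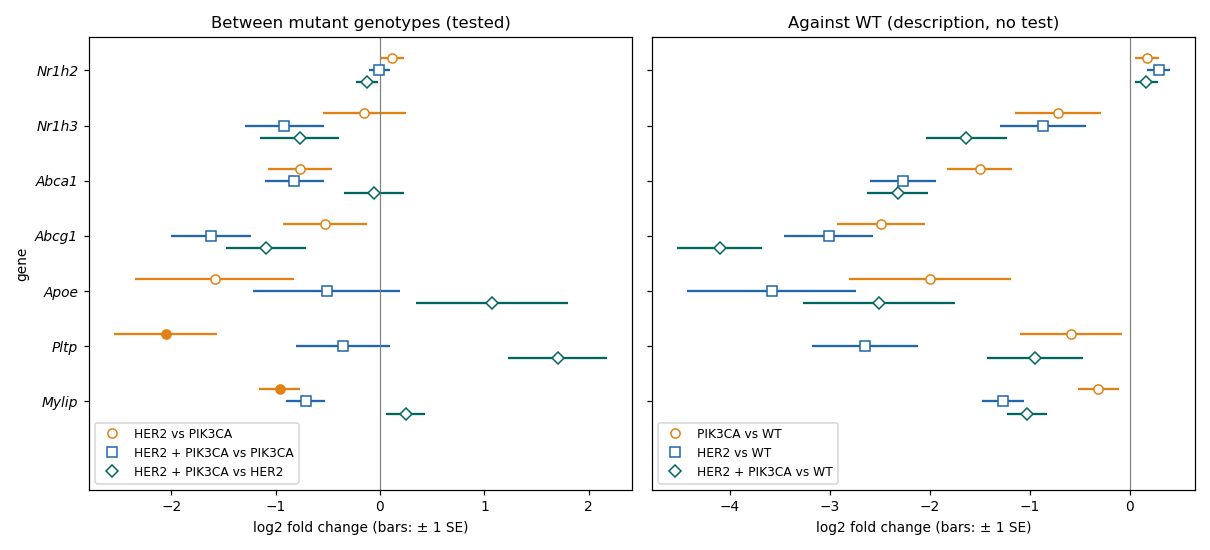
Log2 fold changes with SE of the 7 genes between mutant genotypes (left, filled where the adjusted p was under 0.05 in edgeR) and against WT (right, with no test). Mylip and Pltp in the HER2 against the PIK3CA mutant are the filled points, at -0.96 and -2.05, and Nr1h2 is the gene nearest to 0 against WT in all 3 genotypes.

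Scaled for exon length, the order of the mean levels differed between genotypes. In WT organoids Apoe (206 ± 121 CPM per kilobase, SD, n = 3) and Abca1 (164 ± 47.2) were highest and overlapped. Mylip (59.3 ± 9.0) and Abcg1 (58.6 ± 22.7) followed at nearly the same level, then Nr1h2 (37.2 ± 1.34), Pltp (16.1 ± 4.08) and Nr1h3 (3.47 ± 1.22). In double mutant organoids (n = 5) Nr1h2 led (41.7 ± 5.26 CPM per kilobase), within an SD of the means of Apoe (36.2 ± 12.4) and Abca1 (32.9 ± 9.08). Mylip (29.1 ± 6.47) followed, and its highest sample (37.5) lay below the Nr1h2 mean. Pltp (8.35 ± 2.64) came next, and Abcg1 (3.40 ± 1.96) was the second lowest, above Nr1h3 (1.12 ± 0.45). In HER2 mutant organoids Apoe averaged 17.2 ± 26.4 CPM per kilobase (n = 4), an SD above the mean because of HER2 mutant 1.

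Myeloid markers were also lower in mutant organoids, beside the members' levels against WT. In edgeR 11 of the 12 passed lower in the PIK3CA mutant, 8 in the HER2 mutant and 11 in the double mutant, and 0 higher. The 12 myeloid markers summed to 1100 to 3995 CPM in WT samples, 610 to 774 CPM in PIK3CA mutant, 272 to 454 CPM in HER2 mutant and 239.5 to 425 CPM in double mutant samples. None of the 12 was at 0 in all samples of a genotype, but 8 in the PIK3CA mutant and 9 in the double mutant were under 1 CPM in every sample. Cd14, at 123 to 752 CPM, was most of the sum in every mutant sample but HER2 mutant 1 (123 of 351 CPM), and in the PIK3CA mutant (573 to 752 CPM) it overlapped WT (492 to 599.6 CPM). Without Cd14, a choice made after the values were seen, the sum was 572 to 3503 CPM in WT, 14.5 to 37.4 CPM in PIK3CA mutant and 13.2 to 68.1 CPM in double mutant samples. HER2 mutants 1 to 4 had 228, 97.3, 35.5 and 9.62 CPM, so HER2 mutant 1, high in Apoe, was also high in these. WT samples fell in the same order for this sum and for Abca1, Abcg1, Nr1h3 and Pltp (WT 3, then WT 1, then WT 2). The other members did not follow that order. Apoe and Mylip were highest in WT 1, and Nr1h2 was lowest in WT 3.

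Lyz2, a lysozyme gene of myeloid cells, stood at 404 to 2649 CPM in WT samples and at no more than 0.337 CPM in double mutant samples. Abcg1 differed 4.31-fold between the lowest and highest double mutant sample. Double mutants 2 and 3, lowest in Abcg1, had myeloid sums without Cd14 of 68.1 and 56.1 CPM, of which Cd68, a lysosomal membrane protein, made up 65.4 and 53.4 CPM. The 6 fibroblast markers summed to 325 to 1899 CPM in WT, 65.1 to 471 CPM in PIK3CA mutant, 34.0 to 624 CPM in HER2 mutant and 26.2 to 58.0 CPM in double mutant samples, so both single mutants overlapped WT. In edgeR 0 of the 6 passed in the PIK3CA mutant against WT, where 3 had an unadjusted p under 0.05 and DESeq2 called 0, 1 was lower in the HER2 mutant (Pdgfra) and 5 were lower in the double mutant. None of the 6 was at 0 in all samples of a genotype. The 5 endothelial markers reached at most 4.82 CPM and the 5 adipocyte markers at most 14.1 CPM in any sample. Between the double and HER2 mutants, 7 of the 12 myeloid markers and 1 of the 6 fibroblast markers were lower in the double mutant in edgeR. There 2.5% of all genes passed. All of these marker calls were lost in limma and with the replicate number as a block. Each but that of Lyz2 was lost without any 1 double mutant sample, and that of Lyz2 without double mutant 1, 4 or 5. The myeloid calls other than Lyz2 were also lost without HER2 mutant 1. Fibroblast sums of the double and PIK3CA mutants did not overlap, and the median log2 fold change of the list was -2.52. None of the 6 passed there in edgeR, 5 had an unadjusted p under 0.05 (12.4% of all genes) and DESeq2 called 2. Of the 12 myeloid markers 0 passed in that comparison in edgeR, 2 had an unadjusted p under 0.05 and DESeq2 called 1 (median -1.61). The part of these cell types in the differences from WT and between mutants was not tested.

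**Figure D3:**
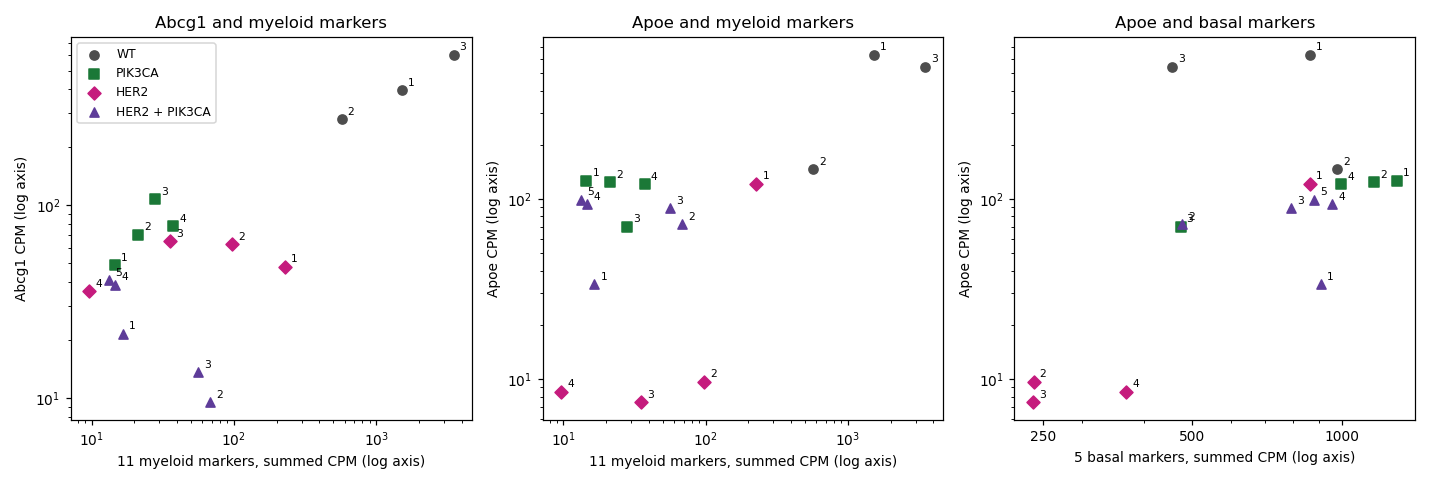
Summed CPM of cell type markers against CPM of Abcg1 and Apoe (log axes), 1 point per sample with its replicate number. WT samples are highest in both the 11 myeloid markers (list without Cd14, 572 to 3503 CPM) and Abcg1, and HER2 mutant 1 lies apart from HER2 mutants 2 to 4 in basal markers and Apoe.

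The remaining genes of the pathway were described from lists chosen by function. Over all tested genes, 4.52% passed the threshold against WT in the PIK3CA mutant, 10.4% in the HER2 mutant and 11.8% in the double mutant. Of 11 tested partners and coregulators of nuclear receptors, none passed between mutants in edgeR or DESeq2, with 1 or 2 at an unadjusted p under 0.05 in each comparison. The lower calls against WT were 1 in the HER2 and 3 in the double mutant, and 0 in each without WT 1 or, in the HER2 mutant, without WT 3 or HER2 mutant 2, 3 or 4. In the double mutant 1 was left without WT 3 or without double mutants 2 and 3 together. With only the 2 genotypes in the fit 0 were left in the HER2 and 2 in the double mutant. The double mutant count was also 2 without the low-count filter or without double mutant 2 or 3. Rxra, the main RXR partner, was among the lower calls, at 336 ± 43.1 CPM (SD, n = 3) in WT and 184 ± 62.3 CPM (n = 4) in the HER2 mutant. It stood at 178 ± 48.3 CPM (n = 5) in the double mutant. Ncoa1, a coactivator, and Gps2, a corepressor subunit, had log2 fold changes of -0.52 each in the double mutant.

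Among 14 tested further LXR targets, Fasn and Mertk rose and Smpdl3a fell in the HER2 mutant against the PIK3CA mutant. That is 2 higher and 1 lower, and none of the 14 passed in the other comparisons between mutants in edgeR. There 2 (double against HER2 mutant) and 3 (double against PIK3CA mutant) had an unadjusted p under 0.05, and DESeq2 called 1 in each. Fasn, the fatty acid synthase, rose from 748 ± 72.9 CPM (SD, n = 4) in the PIK3CA mutant to 2176 ± 945 CPM (n = 4) in the HER2 mutant (log2 fold change 1.54 ± 0.33 SE, adjusted p = 0.0167, edgeR). Mertk, a receptor for the uptake of dead cells, rose by 1.86 ± 0.37 (adjusted p = 0.0118) from 3.06 to 11.1 CPM. In the same comparison the 12 myeloid markers had a median log2 fold change of 3.15, and 10 had an unadjusted p under 0.05. DESeq2 called 6 of the 12, and edgeR called 1, Cd14, which was lower. The part of myeloid cells in the Mertk difference was not tested. Smpdl3a, a phosphodiesterase, had a log2 fold change of -0.75 ± 0.19 (adjusted p = 0.0391). The Mertk call held under all 15 alternatives. That of Fasn was lost without PIK3CA mutant 2 (adjusted p = 0.0672), and that of Smpdl3a held under 5 of 15, being lost without any 1 PIK3CA mutant sample or HER2 mutant 1, 2 or 3 (at most 0.11). Against WT, Fasn was higher in the HER2 and double mutants (log2 2.02 and 1.55), and Mertk was lower in the PIK3CA and double mutants (-2.46 and -1.92). Counts past the threshold were 0 higher and 2 lower, 1 higher and 1 lower, and 1 higher and 2 lower in the PIK3CA, HER2 and double mutants. The lower count became 1 in the PIK3CA mutant without any 1 PIK3CA mutant sample, WT 1 or WT 3, and 0 in the HER2 mutant without WT 1, WT 3 or HER2 mutant 2. In the double mutant it became 1 without WT 1 or without double mutants 2 and 3 together. With only the 2 genotypes in the fit it was 6 in the PIK3CA and 0 in the HER2 mutant. Cd5l, a macrophage gene, had 3557, 12 and 598 counts in WT samples, 55 in HER2 mutant 1 and 0 in each of the other 12 mutant samples.

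Enzymes that make or remove LXR ligands were tested as a list of 5. Between mutants, 1 passed, Sult2b1, an oxysterol sulfotransferase, which was higher in the HER2 than in the PIK3CA mutant (log2 1.00 ± 0.27 SE, adjusted p = 0.0481, edgeR). That call held under 5 of 15 alternatives and was lost without any 1 PIK3CA mutant sample or HER2 mutant 2 or 3 (at most 0.139). In the other comparisons between mutants 0 passed in edgeR or DESeq2, with 2 and 1 at an unadjusted p under 0.05. Ch25h, which makes 25-hydroxycholesterol, was lower against WT in all 3 mutants, at 6.36 ± 5.28 CPM in WT and at most 0.55 CPM on average in a mutant genotype. The call was lost in the PIK3CA mutant without PIK3CA mutant 2 or 3 or WT 3. In the HER2 mutant it was lost without HER2 mutant 3 or 4 or WT 2 or 3, in limma and with only the 2 genotypes in the fit. Cyp27a1, the sterol 27-hydroxylase, was lower in the double mutant (1.13 ± 0.32 CPM in WT and 0.17 ± 0.11 CPM in the double mutant). Of these 2 lower calls in the double mutant, 1 was left without any 1 WT sample, without double mutant 1, 2 or 5 and without double mutants 2 and 3 together.

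Among 13 genes of efflux partners, lysosomal egress and ester storage, Lipa, the lysosomal acid lipase, had its lowest mean in the HER2 mutant, as Pltp did. It averaged 286 ± 50.1 CPM (SD, n = 4) in PIK3CA, 113 ± 39.2 in HER2 (n = 4) and 298 ± 156 in double mutant organoids (n = 5). Lipa fell in the HER2 against the PIK3CA mutant (log2 -1.34 ± 0.36 SE, adjusted p = 0.0458, edgeR) and was higher in the double than in the HER2 mutant (1.41 ± 0.35, adjusted p = 0.0462). These Lipa calls held under 7 of 15 and 7 of 17 alternatives. The first was lost without any 1 PIK3CA mutant sample or HER2 mutant 1 or 2 (at most 0.114). The second was lost without HER2 mutant 1, 2 or 4 or double mutant 1, 4 or 5 (at most 0.193). Abca5, a lysosomal transporter, also fell in the HER2 against the PIK3CA mutant (-0.80 ± 0.16, adjusted p = 0.0132), under all 15 alternatives. No gene of the list passed between the double and PIK3CA mutants in edgeR, where 2 had an unadjusted p under 0.05 and DESeq2 called 1. Against WT the counts were 1 higher and 2 lower, 1 higher and 3 lower, and 3 higher and 2 lower in the PIK3CA, HER2 and double mutants. Without WT 3 the counts were 0 and 0, 1 and 0, and 0 and 2 in that order, and without WT 1 they were 0 and 2, 1 and 0, and 0 and 2. The higher call in the PIK3CA mutant was also lost without PIK3CA mutant 1, 2 or 4, and 1 of the 3 lower calls in the HER2 mutant was left without HER2 mutant 4. With only the 2 genotypes in the fit the counts were 2 and 4 in the PIK3CA mutant and 0 and 1 in the HER2 mutant. With the replicate number as a block they were 0 and 2, 1 and 0, and 2 and 2 in the PIK3CA, HER2 and double mutants. Nceh1, a cholesteryl ester hydrolase, was lower in all 3 (log2 -2.59, -1.88 and -2.47), and Soat1, which esterifies cholesterol, in the PIK3CA and double mutants (-2.30 and -2.26). Scarb1, an HDL receptor, was higher in the HER2 mutant (1.65), and Cav1, the caveolar protein caveolin-1, in the PIK3CA and double mutants (1.76 and 1.84).

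Of 5 lipoprotein receptor genes, Vldlr, the VLDL receptor, was past the threshold and higher against WT in all 3 mutants, and 0 were lower. It averaged 61.3 ± 24.8 CPM (SD, n = 3) in WT, 194 ± 17.8 in PIK3CA mutant (n = 4), 138 ± 48.2 in HER2 mutant (n = 4) and 162 ± 33.1 in double mutant organoids (n = 5). The log2 fold changes against WT were 1.66, 1.17 and 1.4 in that order. In the HER2 mutant 0 of the 5 passed without WT 1 or WT 3, or with only the HER2 mutant and WT in the fit. Between mutants 0 of 5 passed in edgeR, with 0 (double against HER2 mutant), 1 (double against PIK3CA mutant) and 2 (HER2 against PIK3CA mutant) at an unadjusted p under 0.05 and DESeq2 calling 0, 1 and 1.

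Of 18 genes of cholesterol synthesis and SREBP2, 10 were higher and 0 lower in the HER2 mutant against WT, and 13 higher and 0 lower in the double mutant. Without WT 1, 2 or 3 the counts were 4, 5 and 3 in the HER2 mutant, and 8 each in the double mutant. Without HER2 mutant 1 or 4 they were 5 and 6. With only the HER2 mutant and WT in the fit 0 passed. None passed in the PIK3CA mutant against WT in edgeR, where 6 had an unadjusted p under 0.05, DESeq2 called 1 and the fit of these 2 genotypes alone called 9 higher and 1 lower. The medians of the list were 0.54, 1.11 and 1.39 on the log2 scale in the PIK3CA, HER2 and double mutants, beside medians of all genes of -0.03, 0.03 and 0.01. The largest changes in the double mutant were those of Insig1, an SREBP brake that is itself a target (2.44), Msmo1 (2.24) and Cyp51 (1.90), enzymes of the late pathway. Between mutants, Msmo1 and Sc5d, another late enzyme, rose in the double against the PIK3CA mutant (log2 1.28 ± 0.25 and 0.73 ± 0.14 SE, adjusted p = 0.0342 for each, edgeR). Mvd, of the mevalonate steps, rose in the HER2 against the PIK3CA mutant (1.70 ± 0.41, adjusted p = 0.0306). These calls held under 6 of 17 (Msmo1), 8 of 17 (Sc5d) and 7 of 15 alternatives (Mvd), and each was lost without any 1 PIK3CA mutant sample (at most 0.163). Leaving out a sample of the other genotype ended the call for double mutants 1, 2, 3 and 5 (Msmo1), double mutants 1, 4 and 5 (Sc5d) and HER2 mutant 1 (Mvd). Between the double and HER2 mutants 0 of 18 passed in edgeR or DESeq2, with 4 at an unadjusted p under 0.05.

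**Figure D4:**
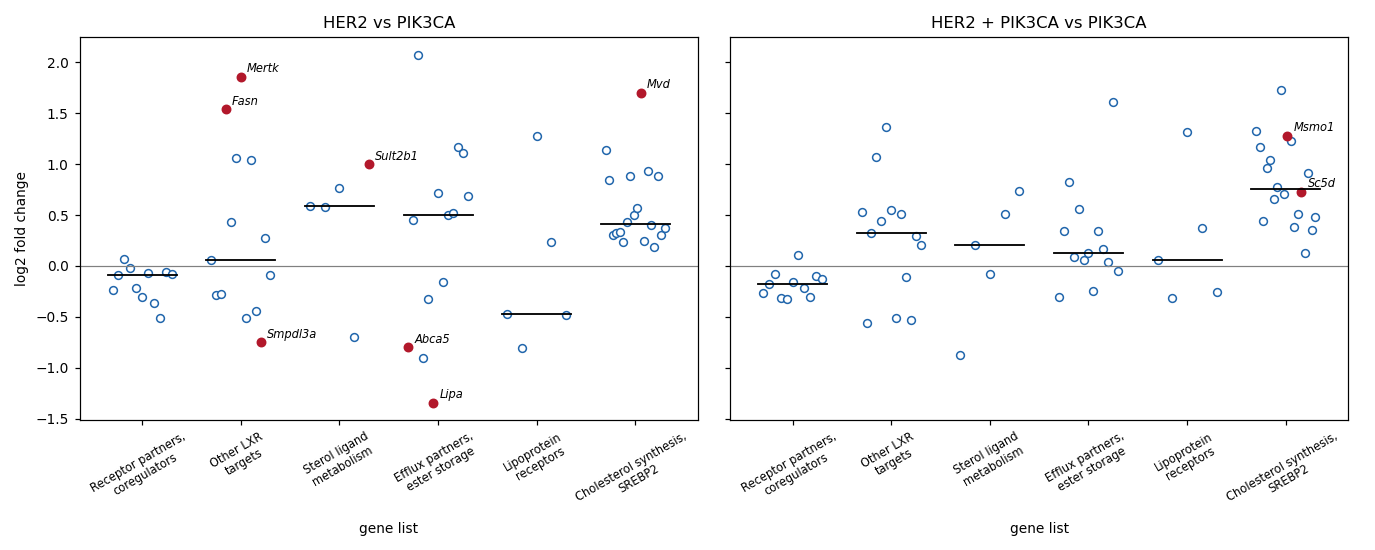
Log2 fold changes of the genes of each list in the HER2 mutant (left) and the double mutant (right), each against the PIK3CA mutant, 1 point per gene, filled where the adjusted p was under 0.05 in edgeR, bars at the list medians. Cd5l, at 0 counts in every PIK3CA and double mutant sample, is left out. Filled points are few in each list, with Mertk (1.86) and Fasn (1.54) the highest among further LXR targets in the HER2 against the PIK3CA mutant.

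The genes whose log2 CPM followed Abcg1 most closely over the 13 mutant samples were Cnnm3 (Pearson r = 0.929), Atf7 (0.923), Inpp5e (0.900), Zfp628 (0.897) and Fam219a (0.897), among 11724 genes ranked. These are descriptions over samples that share genotype, and with each genotype's mean removed the values were 0.847, 0.797, 0.858, 0.810 and 0.766. Spearman's rho ranged from 0.681 (Zfp628) to 0.901 (Atf7). Cnnm3 spanned a narrower range than Abcg1, at 43.5 ± 3.77 CPM (SD, n = 4) in PIK3CA, 33.6 ± 1.90 in HER2 (n = 4) and 25.1 ± 4.79 in double mutant organoids (n = 5). Of the other 6 genes of the set, Nr1h3 (0.662) and Abca1 (0.659) had the highest r with Abcg1 and stood at ranks 325 and 340, followed by Mylip (0.464). With each genotype's mean removed, Abca1 had 0.60, Nr1h3 0.35 and Mylip 0.34, and Spearman's rho with genotype means kept was 0.841, 0.478 and 0.632. Apoe (-0.07), Pltp (-0.03) and Nr1h2 (-0.09) had values near 0, which were -0.04, 0.21 and -0.41 with each genotype's mean removed.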

How the data were processed

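RNA was measured by RNA sequencing of 16 organoid samples, from total RNA with a SMARTer mRNA library kit, per the labels' protocols. Per the submitters' processing notes, the tools were bcl2fastq 2.20, STAR 2.0.4b, Subread featureCounts 1.4.5 and DESeq2 1.33.5 with the build mm10. Strandedness and annotation release are not given in the sources used here. The authors deposited raw read counts per gene and a normalized signal table. In a check, each deposited signal value equalled the count divided by a median-of-ratios factor, within a relative difference of 5.49e-10. Of 55774 entries, 287 repeated an identifier with identical counts and were dropped.

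Counts were tested with edgeR 4.0.16 in R 4.3.3 (filterByExpr, 24252 genes; TMM factors; quasi-likelihood test, two-sided) in a single fit of all 16 samples by genotype. P-values were adjusted by Benjamini-Hochberg over all tested genes of a comparison, with a threshold of 0.05. The share of all genes at an unadjusted p under 0.05 is given for the double against each single mutant only. Counts at that level in other comparisons have no such share beside them. SE is the absolute log2 fold change over the square root of F. Levels are CPM with TMM factors. Log2 CPM used a prior count of 2.

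The alternatives were DESeq2 1.42.0, upper-quartile scaling, no low-count filter, the replicate number as a block, fewer genotypes in the fit, limma 3.58.1 with trend on the log2 of the deposited signal plus 1, and leaving out each sample. Leaving out double mutants 2 and 3 together was added after seeing the data. The fitting code was tested on simulated data.

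The 7 genes and the lists were chosen with earlier results of these data known, and some list genes are not reported here. Named list genes were up to 4 per list with the smallest adjusted p between mutants, and up to 3 with the largest log2 fold change against WT, among those past the threshold. The 5 genes most like Abcg1 were ranked by Pearson r among genes with a mean log2 CPM of at least 1 and no predicted-gene, Rik or clone name. Positions and exon lengths come from GENCODE (GRCm38), and promoter sequences from RefSeq (GRCm38.p6).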

Additional observations from a re-analysis of the deposited data

Results flagged for a closer look

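In 3 of 42 groups of 4 or 5 samples tested, 1 sample lay far from the rest by Dixon's 95% criterion, where chance gives about 1 in 20. Apoe in HER2 mutant 1 was 121.5 CPM, with the next highest of its genotype at 9.66 CPM. The gap was 0.980 of the range, above the critical value of 0.829. Apoe in PIK3CA mutant 3 was 70.15 CPM, the lowest of its genotype, with the next at 120.7 CPM (0.905 of the range). Nr1h3 in HER2 mutant 4 was 9.293 CPM, with the next highest at 3.36 CPM (0.971 of the range).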

How the results depend on the processing

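The 21 log2 differences between mutants were recomputed 343 times in all, of which 311 kept their direction and their side of the threshold. Apart from the changes given with each gene, 14 changed sign, all in differences near 0. Leaving out 1 sample gave -0.24 to 0.20 for Abca1 in the double against the HER2 mutant, -0.067 to 0.038 for Nr1h2 in the double against the PIK3CA mutant and -0.69 to 0.01 for Nr1h3 in the HER2 against the PIK3CA mutant. The single reversed values were 0.062, 0.204, 0.062 and 0.036 for Abca1, 0.007, 0.008, 0.001, 0.016, 0.038 and 0.024 for Nr1h2, and 0.008 and 0.004 for Nr1h3. Limma gave 0.006 for Abca1 and the replicate block 0.017 for Nr1h2. Of 287 recomputed values against WT, 286 moved by less than the spread, and Apoe in the HER2 mutant became -5.69 without HER2 mutant 1.

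Counts over all genes depended more on the processing, and the cause was not tested. For the double against the HER2 mutant, 606 genes passed, 357 of them lower. DESeq2 gave 1715, the 13 mutant samples 353, the 2 genotypes alone 37, the replicate block 118 and the fit without double mutants 2 and 3 1125. Leaving out 1 sample gave 256 to 975, with moves above 1.5 times for HER2 mutant 3 and double mutants 1, 4 and 5. Upper-quartile scaling gave 441 lower and 191 higher. For the double against the PIK3CA mutant, 163 passed. DESeq2 gave 666, the 13 mutant samples 47, the 2 genotypes alone 364, the replicate block 19 and leaving out 1 sample 17 to 143, with such moves for each sample but double mutant 3. For the HER2 against the PIK3CA mutant, 1069 passed. DESeq2 gave 2219, the 2 genotypes alone 534, the replicate block 552 and leaving out 1 sample 427 to 1166, with such moves for each PIK3CA mutant sample. Against WT, 1096 genes passed in the PIK3CA mutant (DESeq2 1869, the 2 genotypes alone 4136, 396 to 1043 without 1 sample). In the HER2 mutant 2518 passed (the 2 genotypes alone 541, the replicate block 1625, 733 to 2693 without 1 sample), and in the double mutant 2850 (1173 to 2961). Moves above 1.5 times came from WT 1 or WT 3 in each, and also from PIK3CA mutants 1 and 2.

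Whether samples with the same replicate number share an animal or a batch is not stated in the labels used here. Correlations of same-numbered samples' deviations were 0.071 to 0.273 between the double and HER2 mutants, where 4 of 8 samples correlated best with their own number, -0.139 to 0.149 and -0.118 to 0.092 in the other comparisons between mutants, and -0.163 to 0.046 in those with WT. The mean correlation between the double and HER2 mutants was 0.157 for same-numbered pairs and -0.041 for other pairs. The block changed no call of the 7 genes between mutants.

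Nr1h3 rests on 70 to 681 counts per sample, the fewest of the 7 genes at this depth, and Pltp had as few as 113 counts in a HER2 mutant sample.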
